A study of Rattus norvegicus with 11 samples.

Results

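miR-203, miR-31 and miR-205 are microRNAs best known from skin and other stratified epithelia, and here they were measured in rat liver. Rows of the deposited microRNA table were taken by name (miR-203a, miR-203b, miR-31a, miR-31b and miR-205, any arm), which gave 6 of its 1331 rows and 6 of its 533 rows with rat microRNA names. They were rno-miR-203a-3p, rno-miR-203b-3p, rno-miR-203b-5p, rno-miR-31a-5p, rno-miR-31a-3p and rno-miR-205, written below without the prefix for rat. The table holds no row named miR-203a-5p or miR-31b, so neither is analysed here. The liver samples came from male Sprague-Dawley rats, aged 4 weeks when the experiment began. In the TPN group, 5 rats received total parenteral nutrition, in which all nutrients enter by a vein, for 7 days. In the Control group, 6 rats ate standard chow and received 0.9% saline by vein for the same 7 days. Each rat is called by its group and its number in the labels.

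A microRNA is a short RNA that guides Argonaute proteins to messenger RNAs, chiefly through its seed, bases 2 to 8 from the 5′ end, and thereby lowers their translation and stability. In mouse and human skin, miR-203 is switched on as cells leave the basal layer and represses the stem cell factor p63. miR-31 is raised in proliferating and wounded skin and represses FIH, an inhibitor of the hypoxia-inducible factors. miR-205 is abundant in basal cells of stratified epithelia and of glands, and shares with the miR-200 family the targets ZEB1 and ZEB2, which repress epithelial genes. The liver holds no stratified epithelium; its epithelial cells are hepatocytes and the cells that line bile ducts.

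All 6 rows matched a mature sequence of RefSeq (build GRCr8), and all 6 are shown because their seeds tell apart rows with near-identical names. The capitals mark the seed.
miR-203a-3p: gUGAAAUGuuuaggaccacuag
miR-203b-3p: uUGAACUGuuaagaaccacugg
miR-203b-5p: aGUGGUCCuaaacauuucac
miR-31a-5p: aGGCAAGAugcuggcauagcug
miR-31a-3p: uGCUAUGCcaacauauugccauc
miR-205: uCCUUCAUuccaccggagucugu
No seed was shared between members, and 0 other mature microRNAs in the RefSeq table carried any of these seeds. Despite their names, miR-203a and miR-203b are not copies of a sequence: they lie on opposite strands of the same stretch of chromosome 6.

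In RefSeq, the miR-203a hairpin (Mir203) runs along the plus strand of chr6:137020705-137020801 and overlaps Mir3545, the gene of miR-203b, on the minus strand. Mir203 overlaps no other annotated gene, and the nearest protein-coding genes are Aspg on the side of lower coordinates and Kif26a on the other. The deposited table names no genome build, so these positions are RefSeq's and not the authors'. The Mir203 hairpin is printed with each overlap in turn. On the first line the capitals mark miR-203a-3p; on the second they mark the stretch whose reverse complement is miR-203b-3p.
Mir203 with miR-203a-3p: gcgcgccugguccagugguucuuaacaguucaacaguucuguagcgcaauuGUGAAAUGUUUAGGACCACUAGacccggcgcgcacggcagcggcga
Mir203 with the complement of miR-203b-3p: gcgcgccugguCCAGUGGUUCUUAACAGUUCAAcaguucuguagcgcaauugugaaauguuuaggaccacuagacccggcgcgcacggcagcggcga
miR-203b-3p thus overlaps miR-203a-5p by 20 bases on the opposite strand, and miR-203b-5p overlaps miR-203a-3p by 20 bases. Whether the authors' counting used strand is not given in the sources used here. If it did not, reads of miR-203b-3p and miR-203a-5p cannot be told apart.

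Both arms of miR-31a come from Mir31, on the minus strand of chr5:108714849-108714954. That hairpin overlaps the gene of a long non-coding RNA, LOC130062807, and Mir3554, the gene of miR-31b, on the plus strand. The capitals mark the 5p arm and then the 3p arm.
Mir31: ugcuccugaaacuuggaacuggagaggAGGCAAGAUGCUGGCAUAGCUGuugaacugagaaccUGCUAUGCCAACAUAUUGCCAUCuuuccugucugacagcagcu
Mir205, on the minus strand of chr13:107564535-107564642, overlaps no other annotated gene.

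Levels are counts per 1000000 (CPM) of the reads assigned to rows of the table, so each is a share of its library. Recovered reads per library ranged between 7552545 and 14788757 in TPN and between 1404858 and 10189899 in Control. Control 5, 12 and 19 stood apart: they had the fewest reads (1404858 to 3891974) and the largest share in rows named as predicted microRNAs (0.517% to 2.0%, against 0.0965% to 0.145% in the other 8 libraries). Results are therefore also given without these 3 libraries. In whole liver, fewer cells of a type and less RNA per cell cannot be told apart.

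The squamous label fitted the members unequally. Among the 533 rat-named rows, miR-203b-3p ranked 65 by mean level with 182 CPM, miR-203a-3p ranked 70 with 143 CPM, miR-31a-5p ranked 92 with 71.8 CPM and miR-31a-3p ranked 172 with 9.15 CPM. miR-205, a defining microRNA of stratified epithelium, ranked 328 with 0.467 CPM. For scale, the hepatocyte microRNA miR-122-5p had 148245 CPM. miR-200b-3p, the most abundant of the miR-200 family of columnar epithelia such as bile ducts, had 649 CPM. By mean level miR-203b-3p ranked above miR-203a-3p, but not in each rat: miR-203b-3p was the higher in 5 rats and miR-203a-3p in 6.

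**Figure D1:**
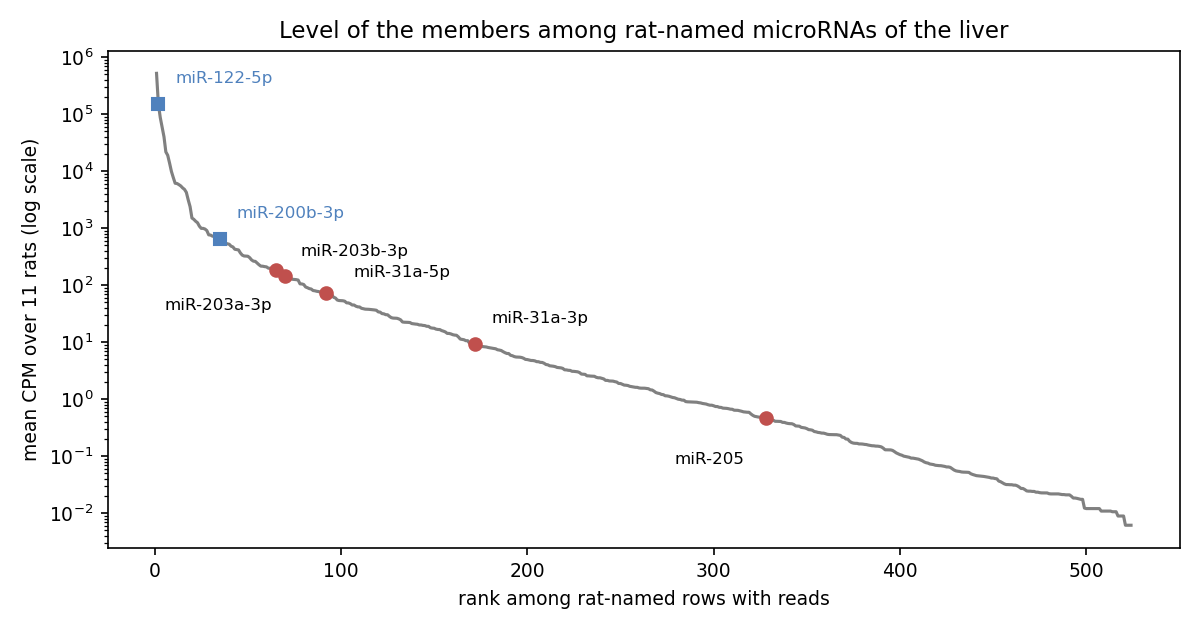
Mean CPM over the 11 rats (vertical axis, log scale) of each rat-named row with reads, in order of level (horizontal axis, rank). Red circles mark the 5 detected members and blue squares mark miR-122-5p and miR-200b-3p; miR-203b-3p, miR-203a-3p and miR-31a-5p lie between 71.8 and 182 CPM and miR-205 lies at 0.467 CPM.

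miR-203a-3p, the arm that represses p63, had 114 CPM in TPN 6, 119 CPM in TPN 8, 73.4 CPM in TPN 11, 80.7 CPM in TPN 15 and 105 CPM in TPN 16. In the 6 Control rats it had 108 CPM at the lowest, 177 CPM at the median and 265 CPM at the highest. Every TPN rat was under the Control median, and 3 were under the lowest Control rat, but the groups overlapped because Control 18, at 108 CPM, was under TPN 6 and TPN 8. The TPN mean was 98.4 CPM ± 20.3 (SD, n = 5), against a Control mean of 180 CPM ± 57.3 (SD, n = 6). The counting error was small beside this spread: the exact 95% interval of a library's value reached at most 14.6% to either side, in Control 12 with its 188 reads.

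The test across all rows used limma-trend on log2(CPM + 1), over the 535 rows whose mean reached 1 CPM. The 4 members past that filter were miR-203a-3p, miR-203b-3p, miR-31a-5p and miR-31a-3p. At an adjusted p under 0.05, 0 of these 4 were called, against 0% of all 535 rows in either direction. miR-203a-3p had a log2 fold change of -0.83 ± 0.26 (SE), an unadjusted p of 0.00658 and a limma-trend adjusted p of 0.296. At an unadjusted p under 0.05 it was 1 of 60 rows lower in TPN, 11.2% of the rows tested (1 row, 0.187%, was higher). The rows tested include predicted microRNAs. In a limma-trend fit of the 280 rat-named rows alone, 33 were lower and 1 was higher at this threshold. edgeR called 0% of the 535 rows at an adjusted p under 0.05. With each Control library left out in turn (5, 7, 12, 16, 18 and 19), the 60 became 24, 130, 38, 150, 155 and 38. The filter was applied anew in each fit, which tested 517, 545, 423, 547, 546 and 525 rows in that order. With each TPN library left out (6, 8, 11, 15 and 16), the 60 became 40, 44, 20, 29 and 21. Those fits tested 546, 547, 548, 546 and 546 rows. Over these fits the unadjusted p of miR-203a-3p ran from 0.0019 to 0.020. The split between lower and higher rows at this threshold depended on the scaling and on the test. In limma-trend it was 26 and 9 with TMM, 28 and 6 with RLE and 31 and 18 with upper-quartile scaling. In edgeR, which also used TMM, it was 160 and 8. Set against the library median, 4 of 280 rat-named rows were lower and 23 higher at an unadjusted exact permutation p under 0.05. In the main limma-trend fit the median rat-named row had a log2 fold change of -0.26. The median of all 535 rows, predicted microRNAs included, was -0.56. miR-203a-3p stood 0.56 below the median rat-named row, and 25 of 280 rat-named rows lay lower still.

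The size of the difference in miR-203a-3p depended on the scaling. Its log2 fold change of -0.83 on the deposited scale was, in limma-trend, -0.49 with RLE (unadjusted p = 0.0384), -0.35 with TMM (unadjusted p = 0.149) and -0.18 with upper-quartile scaling (unadjusted p = 0.548), and it was -0.38 in edgeR (unadjusted p = 0.111) and -0.54 in DESeq2 (unadjusted p = 0.0123). A scaling moves the median row as well, so the distance between miR-203a-3p and that row, -0.56 on the deposited scale and -0.48 with upper-quartile scaling, is nearly fixed by construction and is no sign of stability. On the deposited scale the log2 fold change was -0.69 without Control 5, 12 and 19. In a split that was not planned, it was -0.83 in the 4 rats with numbers below 10 and -0.87 in the 7 with higher numbers. The 4 were TPN 6, TPN 8, Control 5 and Control 7, too few to show that the difference repeats. DESeq2 came nearest to a call with an adjusted p of 0.0557, a tool that called 20.2% of the same rows lower and 0.935% higher in TPN. Set against the median rat-named row within each library, the level was lower by a log2 difference of -0.41 with a 2-sided exact permutation p of 0.0909, which did not pass (adjusted p = 0.566 over the 280 rat-named rows).

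**Figure D2:**
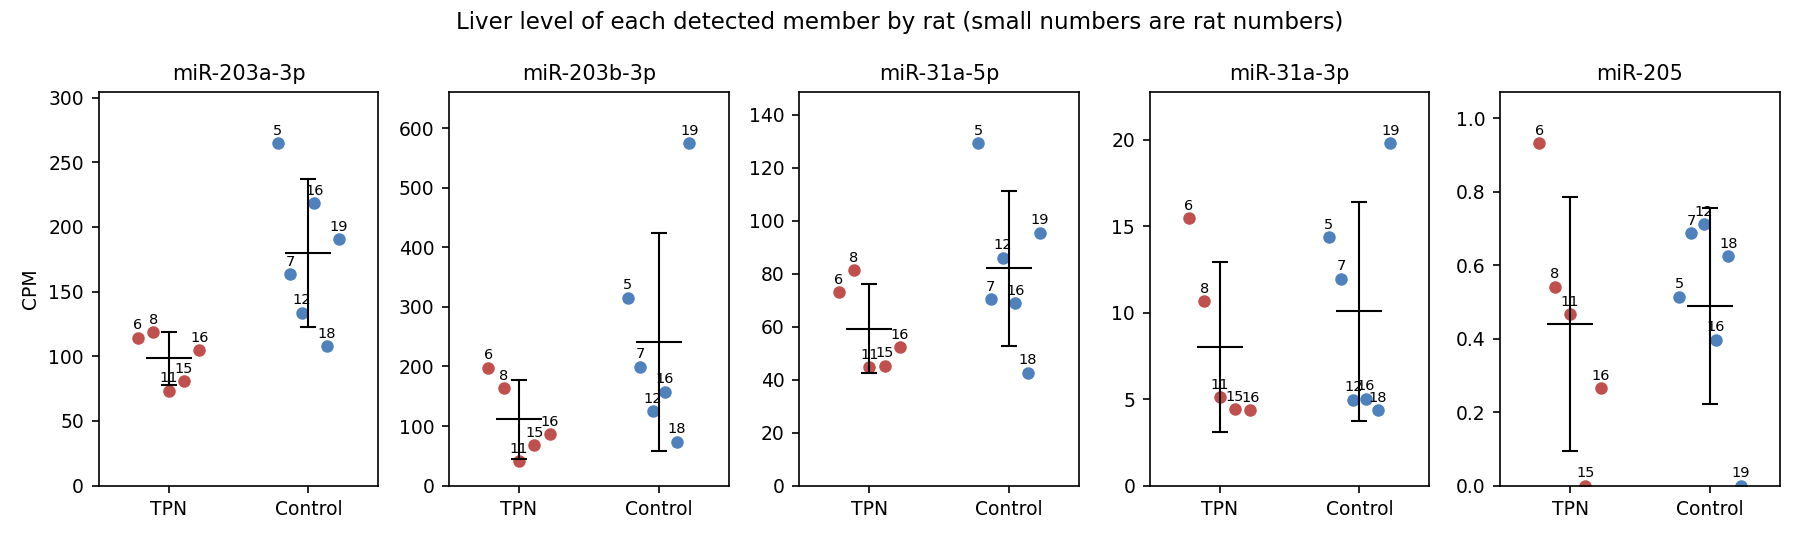
CPM of each detected member in each rat (vertical axes, each from 0), TPN in red on the left and Control in blue on the right of each panel. Small numbers are rat numbers, and the long bars with whiskers are means ± SD. miR-203a-3p averages 98.4 CPM in TPN and 180 CPM in Control, while the other members overlap more widely.

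miR-203b-3p, from the strand opposite to miR-203a, had 198 CPM in TPN 6, 164 CPM in TPN 8, 40.9 CPM in TPN 11, 68.0 CPM in TPN 15 and 86.2 CPM in TPN 16. In Control rats it had 73.7 CPM at the lowest, 179 CPM at the median and 574 CPM at the highest, in Control 19. The highest rat had 14.0 times the level of the lowest, against 3.61 times for miR-203a-3p. The groups overlapped between 73.7 and 198 CPM, while 2 TPN rats lay below every Control rat and 3 Control rats above every TPN rat, with a TPN mean of 111 CPM ± 66.5 (SD, n = 5), against a Control mean of 241 CPM ± 183 (SD, n = 6). The log2 fold change was -1.02 ± 0.52 (SE; limma-trend adjusted p = 0.296), and -0.47 without Control 5, 12 and 19. It was -0.69 with RLE, -0.54 with TMM and -0.37 with upper-quartile scaling. In the unplanned split it was -0.48 in the rats with numbers below 10 and -1.44 in those with higher numbers. Both the value and its SE were larger than those of miR-203a-3p, and without Control 19 alone the value was -0.70.

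The other arm on that strand, miR-203b-5p, had 0 reads in all 11 rats. That is 0 of 47855289 reads in TPN, which allows up to 0.0627 CPM, and 0 of 33976854 reads in Control, which allows up to 0.0883 CPM. Such limits cover counting error only. On the opposite strand of the same stretch, miR-203a-3p had 4832 reads in TPN and 5956 reads in Control.

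miR-203b-3p over miR-203a-3p, a ratio chosen after its values were seen and given with no test, does not depend on the scaling of a library. It was 1.73 in TPN 6, 1.38 in TPN 8, 0.558 in TPN 11, 0.843 in TPN 15 and 0.822 in TPN 16. In Control rats it was 0.684 at the lowest, 1.06 at the median and 3.01 at the highest. Control 19 held that highest value, far above the next Control rat, Control 7, at 1.22. The members of the pair therefore did not keep a fixed proportion between rats, and TPN and Control rats were mixed along the range.

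miR-31a-5p, the arm that represses FIH, had 73.0 CPM in TPN 6, 81.5 CPM in TPN 8, 44.7 CPM in TPN 11, 45.3 CPM in TPN 15 and 52.2 CPM in TPN 16. In Control rats it had 42.7 CPM at the lowest, 78.2 CPM at the median and 129 CPM at the highest. The groups overlapped, since Control 18 was lower than every TPN rat and 3 of the 6 Control rats were higher than every TPN rat. The TPN mean was 59.3 CPM ± 16.9 (SD, n = 5), against a Control mean of 82.1 CPM ± 29.3 (SD, n = 6). Its log2 fold change of -0.43 ± 0.29 (SE; limma-trend adjusted p = 0.338) lay near the -0.26 of the median rat-named row. It was -0.04 without Control 5, 12 and 19, 0.05 with TMM scaling and 0.22 with upper-quartile scaling. Set against the library median its difference was -0.01 (exact permutation p = 0.959).

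miR-31a-3p, the less abundant arm, had 15.5 CPM in TPN 6, 10.7 CPM in TPN 8, 5.13 CPM in TPN 11, 4.43 CPM in TPN 15 and 4.37 CPM in TPN 16. In Control rats it had 4.37 CPM at the lowest, 8.50 CPM at the median and 19.8 CPM at the highest. The TPN mean was 8.02 CPM ± 4.93 (SD, n = 5), against a Control mean of 10.1 CPM ± 6.33 (SD, n = 6), and the groups covered nearly the same range. The log2 fold change was -0.26 ± 0.45 (SE; limma-trend adjusted p = 0.777), at the median row, and 0.11 without Control 5, 12 and 19. With TMM, RLE and upper-quartile scaling it was 0.17, 0.04 and 0.31.

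The balance of the miR-31a arms varied between rats and overlapped between the groups. The 5p arm had 4.71 times the level of the 3p arm in TPN 6, 7.63 in TPN 8, 8.70 in TPN 11, 10.2 in TPN 15 and 11.9 in TPN 16. In Control rats the ratio was 4.83 at the lowest (Control 19), 9.38 at the median and 17.3 at the highest (Control 12, with 7 reads of the 3p arm). The mean log2 ratio of (CPM + 1) was 2.86 ± 0.43 (SD, n = 5) for TPN, against 3.03 ± 0.62 (SD, n = 6) for Control. The difference of -0.17 had a 2-sided exact permutation p of 0.604.

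miR-205, the member most restricted to stratified and basal epithelium, was at the edge of detection. It had 8 reads in TPN 6, 8 in TPN 8, 4 in TPN 11, 0 in TPN 15 and 2 in TPN 16. In Control rats it had between 0 reads (Control 19) and 7 reads (Control 7). Over the reads of each group it had 0.460 CPM in TPN (22 reads, exact Clopper-Pearson 95% interval 0.288 to 0.696) and 0.530 CPM in Control (18 reads, 0.314 to 0.837). The intervals, which cover counting error only, overlapped, and no difference was detectable at this depth. The 0 reads of TPN 15 allow up to 0.359 CPM and those of Control 19 up to 1.02 CPM. Its mean was under 1 CPM, so the fit did not include it.

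**Figure D3:**
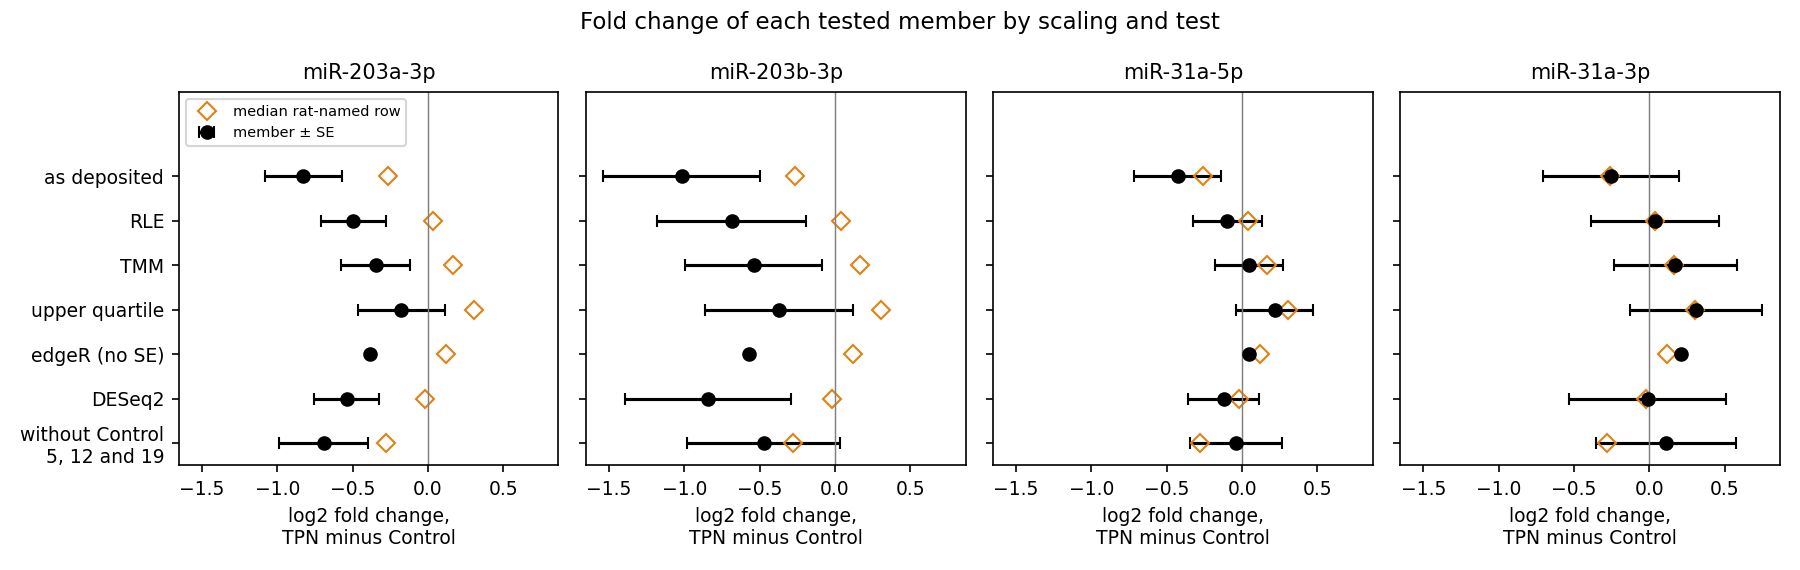
Log2 fold change, TPN minus Control (horizontal axis), of the 4 tested members by scaling or test (rows). Black circles are the members with their SE where the tool gives it, and orange diamonds are the median rat-named row under the same setting. miR-203a-3p and miR-203b-3p lie below the median row in each setting shown, and both arms of miR-31a lie close to it, except without Control 5, 12 and 19, where they lie above it.

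Whether the members differed from each other between the groups was tested on their ratios within each library. The ratio of CPM is not moved by the scaling of a library. The ratio of miR-203a-3p to miR-31a-5p was 1.57 in TPN 6, 1.46 in TPN 8, 1.64 in TPN 11, 1.78 in TPN 15 and 2.01 in TPN 16. In Control rats it was 1.55 at the lowest, 2.19 at the median and 3.17 at the highest. Most Control rats stood higher, with Control 12, the library with the fewest reads, as the low value. The mean log2 ratio of (CPM + 1) was 0.74 ± 0.18 (SD, n = 5) for TPN, against 1.14 ± 0.34 (SD, n = 6) for Control. The difference of -0.40 had a 2-sided exact permutation p of 0.0476 and did not pass after Benjamini-Hochberg adjustment over the 3 planned pairs (adjusted p = 0.0779). Without Control 12 the difference was -0.50 with an adjusted p of 0.0476, and with each of the other libraries left out the adjusted p was between 0.0786 and 0.157. Without Control 5, 12 and 19 together it was -0.65 with an adjusted p of 0.0536. Against miR-205, the difference was -0.77 for miR-203a-3p (exact permutation p = 0.0519, adjusted p = 0.0779; with 0.1 CPM added in place of 1 it was -0.62, p = 0.455, adjusted p = 0.682) and -0.37 for miR-31a-5p (exact permutation p = 0.286, adjusted p = 0.286). Because miR-205 was so low, its CPM + 1 hardly varied, and these differences are close to those of the other member alone.

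Apart from the groups, the same 5 rats were highest in miR-203b-3p and in miR-31a-3p. In TPN 6, TPN 8, Control 5, Control 7 and Control 19, miR-31a-3p had 10.7 to 19.8 CPM and miR-203b-3p had 164 to 574 CPM. In the other 6 rats they had 4.37 to 5.13 CPM and 40.9 to 158 CPM. These rats were picked out after their values were seen, and no test was made. Both diets were among the high and among the low rats. Of the 5 high rats, 4 were the rats numbered below 10, and the labels do not say what the numbers stand for. miR-203a-3p and miR-31a-5p did not separate these rats, with overlapping ranges of 114 to 265 CPM against 73.4 to 219 CPM and of 70.4 to 129 CPM against 42.7 to 86.1 CPM.

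**Figure D4:**
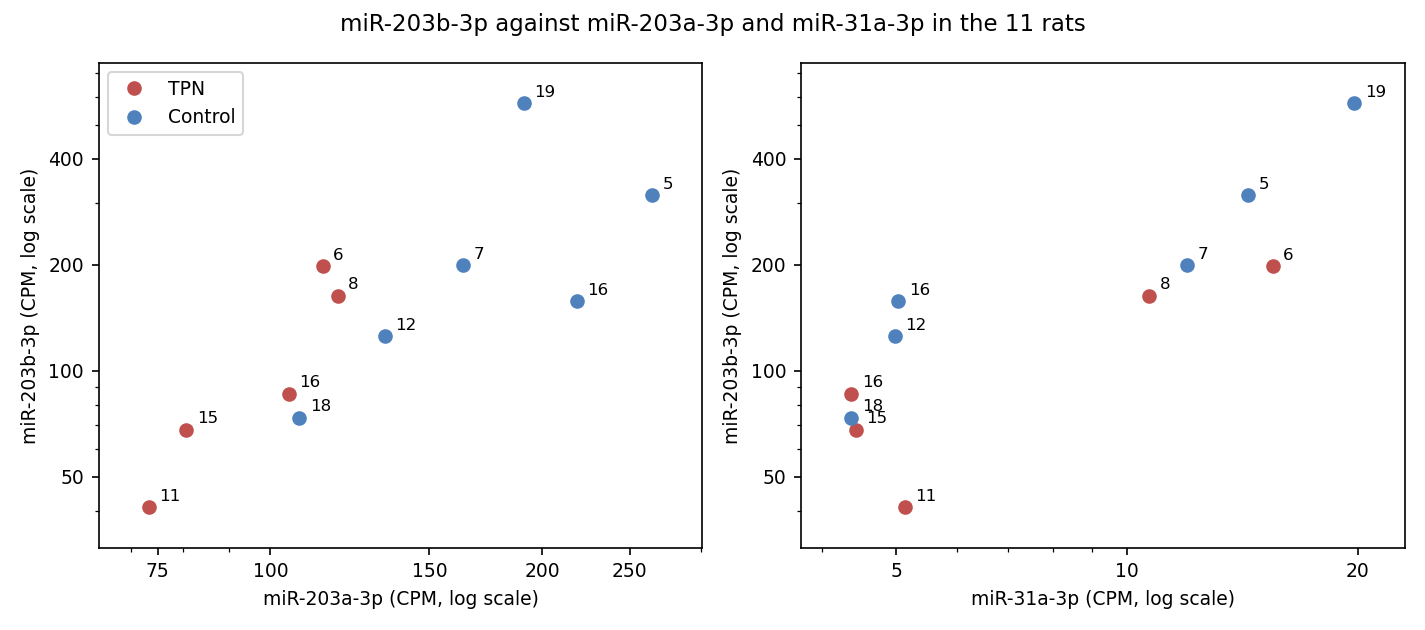
miR-203b-3p (vertical axes, CPM, log scale) against miR-203a-3p (left) and miR-31a-3p (right; horizontal axes, CPM, log scale) in each rat, TPN in red and Control in blue, with rat numbers. On the right, 5 rats of both groups lie at 10.7 to 19.8 CPM of miR-31a-3p and 6 at 4.37 to 5.13 CPM; on the left, Control 19 has 3.01 times as much miR-203b-3p as miR-203a-3p.

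The rows whose levels followed each member most closely are given by Pearson's r of log2(CPM + 1) over the 11 rats, among rat-named rows whose mean reached 10 CPM, as a description. All libraries share the compositional CPM scale and the group difference, so many rows are correlated. miR-203a-3p was most like miR-194-5p (r = 0.909), a hepatocyte and intestinal microRNA, miR-15b-5p (r = 0.909) and miR-339-5p (r = 0.908). miR-31a-5p was most like miR-26b-5p (r = 0.951), miR-17-5p (r = 0.941) and miR-93-5p (r = 0.937). miR-17-5p and miR-93-5p share the seed AAAGUGC with each other but not with miR-31a-5p. For miR-205 the highest were miR-1839-5p (r = 0.618), miR-122-3p (r = 0.609) and miR-152-3p (r = 0.572), on so few reads that no likeness can be read from them. For miR-203b-3p, added after seeing the data, they were miR-20a-5p (r = 0.978), miR-30c-2-3p (r = 0.976) and miR-195-5p (r = 0.969). For miR-31a-3p, likewise added, they were miR-101b-3p (r = 0.963), miR-30a-5p (r = 0.961) and miR-322-5p (r = 0.957). Seeds recurred across the members' nearest rows. miR-20a-5p also carries AAAGUGC, and miR-15b-5p, miR-195-5p and miR-322-5p share AGCAGCA. None of these nearest rows was another member. Between members, r was 0.858 for miR-203b-3p with miR-31a-3p, 0.858 with miR-31a-5p and 0.815 with miR-203a-3p. It was 0.813 for miR-203a-3p with miR-31a-5p and 0.731 for the arms of miR-31a. The nearest rows of miR-203b-3p and of miR-31a-3p thus followed them more closely than these members followed each other.

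Other epithelial microRNAs are described by counts. Of 8 tested rows of the columnar epithelial list (miR-200a, miR-200b, miR-200c, miR-141, miR-429 and miR-375), 6 were positive and 2 were negative in TPN, with a median log2 fold change of 0.21, and 0 were called. miR-200b-3p, its most abundant row, had 0.22 ± 0.38 (SE). miR-375-3p, named after its values were seen, had a TPN mean of 87.2 CPM, against a Control mean of 60.3 CPM. Its log2 fold change was 0.53 ± 0.20 (SE; limma-trend unadjusted p = 0.0183, adjusted p = 0.296). It was the 1 tested row higher in TPN at an unadjusted p under 0.05. miR-200c-3p, with the smallest p of this list, had a TPN mean of 9.21 CPM ± 1.94 (SD, n = 5), against a Control mean of 17.8 CPM ± 6.21 (SD, n = 6), and its log2 fold change was -0.83 ± 0.29 (limma-trend adjusted p = 0.296). Of 11 tested rows of other microRNAs studied in stratified epithelium (miR-184, miR-125b, miR-24, miR-34a, miR-34c, miR-196a, miR-196b and miR-21), 3 were positive and 8 negative, with a median of -0.13, and 0 were called. miR-21-5p, its most abundant row, had 0.06 ± 0.34 and miR-34c-5p, with its smallest p, had -0.62 ± 0.33 (limma-trend adjusted p = 0.296). The 4 tested members had a median of -0.63, all 4 negative; of all 280 rat-named rows tested, 79.3% were negative, with a median of -0.26.

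Marker microRNAs of other cells are given beside these values because blood and other cells are part of whole liver. The red blood cell rows (miR-451 and miR-144) summed to 31.3 to 261 CPM in TPN and 133 to 802 CPM in Control, with 3 of 3 tested rows negative and 0 called. Among them miR-451-5p, named after its values were seen, had a log2 fold change of -2.35 ± 0.63 (SE; limma-trend adjusted p = 0.296), further from 0 than that of miR-203a-3p. The blood and immune cell rows (miR-142, miR-150, miR-223 and miR-342) summed to 147 to 202 CPM in TPN and 161 to 328 CPM in Control, with 6 of 7 negative and 0 called. The rows of stellate cells, fibroblasts and smooth muscle (miR-143, miR-145, miR-199a and miR-214) summed to 12710 to 28086 CPM in TPN and 18657 to 37661 CPM in Control, with 7 of 7 negative and 0 called. The hepatocyte rows of miR-122 summed to 25780 to 227937 CPM in TPN and 22116 to 335653 CPM in Control, with 2 of 2 negative and 0 called. The endothelial rows of miR-126a summed to 3162 to 6568 CPM in TPN and 2019 to 6849 CPM in Control, with 1 of 2 negative and 0 called. Beside these counts, 79.3% of all 280 rat-named rows tested were negative, and 0% of all 535 rows tested were called. No row of these lists was at 0 in all libraries. Their part in the values of miR-203a-3p was not tested.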

How the data were processed

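Small RNA libraries of liver RNA from 11 rats, extracted with TRIzol, were sequenced on the Illumina platform, per the labels' protocols. CPM values were deposited by the authors, with 1 column per rat. DESeq2 is named without a version or role, per the submitters' processing notes; of the aligner, counter, microRNA database, build, strand setting and filters, none is given in the sources used here. Dividing each column by its smallest non-zero value gave whole numbers (within 0.001 for 100% of values), taken as reads. No molecular identifiers are stated, so intervals and limits (3 reads for a count of 0) cover counting error only.

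The fit was limma-trend (limma 3.58.1, R 4.3.3) on log2(CPM + 1), rows whose mean reached 1 CPM, no further scaling and Benjamini-Hochberg adjustment; this scale understates changes of rare rows. edgeR 4.0.16 (quasi-likelihood, TMM) and DESeq2 1.42.0 on recovered reads called 0 and 113 rows. Ratios and levels relative to the library median were tested by 2-sided exact permutation over the 462 regroupings of the rats (absolute difference of means); the relative levels were adjusted over all 280 rat-named rows, where the plan had the members only. The limma-trend fit and the permutation test were tested on simulated data, and the edgeR and DESeq2 fits were not. The members, lists and the 3 libraries left out together were chosen with earlier results of these data known. Named rows were all members, the 3 most correlated rows of each main arm, and of both epithelial lists the most abundant row and that with the smallest p; lists of other cells are given by counts and sums. Sequences are from RefSeq (GRCr8). Figures used matplotlib 3.10.9.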

Additional observations from a re-analysis of the deposited data

Results flagged for a closer look

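The ratio of miR-203b-3p to miR-203a-3p was 3.01 in Control 19, so far above the other 5 Control rats that its gap exceeded the 95% critical value of Dixon's test for a single distant sample. Of 18 sets of values checked in this way, 1 was picked out, and chance picks out about 1 in 20. The flagged ratio was chosen after its values were seen, so neither the 95% level nor the 1 in 20 holds for it. Control 19 is among the 3 libraries with the fewest reads, with 1683 reads of miR-203b-3p and 559 of miR-203a-3p.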

How the results depend on the processing

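No paired analysis was possible because the groups share only the rat number 16, and nothing in the labels ties those rats together. The fold changes of miR-203a-3p and miR-203b-3p were negative and uncalled under all 24 alternatives each, the unplanned split by rat number included. They lay between -0.96 and -0.18 and between -1.44 and -0.37. With each library left out in turn they ran from -0.96 to -0.70 and from -1.29 to -0.70, miR-31a-5p from -0.60 to -0.28 and miR-31a-3p from -0.51 to -0.03. miR-31a-5p turned to 0.047 with TMM scaling, 0.22 with upper-quartile scaling and 0.048 with edgeR. miR-31a-3p turned to 0.17 with TMM, 0.038 with RLE and 0.31 with upper-quartile scaling, 0.21 with edgeR and 0.11 without Control 5, 12 and 19. The scalings moved the median rat-named row too, which was -0.26 as deposited, 0.04 with RLE, 0.16 with TMM and 0.31 with upper-quartile scaling. The count of called rows was 0 under every alternative except DESeq2, with 113; the cause was not tested.

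Relative to the library median, the difference of miR-31a-5p ran from -0.15 to 0.068 with each library left out. It was 0.0026 with a pseudocount of 0.1 CPM, 0.0028 against the upper quartile and 0.29 without Control 5, 12 and 19. The ratio of miR-203a-3p to miR-31a-5p ran from -0.50 to -0.29 with each library left out. The ratio of miR-31a-5p to miR-205 turned to 0.11 without Control 5, 12 and 19. Depth limits miR-205: 1 read was 0.712 CPM in Control 12 and 0.0676 CPM in TPN 8, so single rats could not be compared.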
